A study of Mus musculus with 6 samples.

Results

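Arginine is both fuel and signal for macrophages, and the genes described here are 10 that handle it and the polyamines made from it: the arginases Arg1 and Arg2, the inducible nitric oxide synthase Nos2, the importer Slc7a2, the resynthesis enzymes Ass1 and Asl, the polyamine synthesis enzymes Odc1, Srm and Sms, and the polyamine acetyltransferase Sat1. They were taken by symbol from GENCODE M21 on the mouse genome build GRCm38, and all 10 were found among the 55487 genes of the count tables. The cells were macrophages from Lewis lung carcinoma, a mouse lung tumour line implanted subcutaneously in C57BL/6 mice, with tumours harvested between day 15 and day 17. All libraries came from cells sorted as CD11b+, F4/80+, Ly6C- and Ly-6G-, and surface MHC-II divided them into 3 MHC-II high and 3 MHC-II low libraries by their labels. Each label has 1 library in each of batches 1 to 3, and ribosomal RNA was depleted before stranded total RNA sequencing. Whether separate mice stand behind each library, or mice were pooled, is not stated, so the spread that p-values rest on here may be technical.

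In macrophages, arginase splits arginine into ornithine and urea, while Nos2 turns the same substrate into nitric oxide and citrulline. Ass1 and Asl rebuild arginine from citrulline. Odc1 turns ornithine into the polyamine putrescine, Srm and Sms lengthen it to spermidine and spermine, and Sat1 marks the longer polyamines for export or breakdown. High Arg1 is a widely used mark of alternatively activated and tumour-associated mouse macrophages, and Nos2 of classically activated ones.

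The transcripts of MHC-II went against the labels. H2-Aa, the alpha chain of an MHC-II molecule, averaged 5.52 CPM (read counts scaled to a common library size) where the label said high, against 1350 CPM where it said low, with an edgeR adjusted p of 2.6e-05. Cd74, the invariant chain that accompanies MHC-II, averaged 30.6 CPM under the high label and 3049 CPM under the low label (n = 3 each). The groups are therefore called high-labelled and low-labelled libraries throughout, and every direction below is that of the label as given. A direction between cells that in fact carry much or little MHC-II cannot be drawn without knowing whether the labels are right.

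Reads in genes ranged from 15159356 to 25473051 in the high-labelled libraries and from 10202879 to 21290781 in the low-labelled libraries. Low-labelled replicate 3 was the shallowest and stood apart: a ribosomal RNA copy took 47.3% of its reads in genes, against 3.85% to 13.5% in the other libraries. Its counts also leaned towards genes rich in G and C, by 0.82 on the log2 scale for each 10 points of GC content, against -0.46 to 0.21 in the other libraries. The values of the 10 genes are therefore given for every library, in the order of replicates 1, 2 and 3, and their fold changes also after a GC offset, which takes each library's smooth trend over GC content out of the fit.

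Base composition differs widely among the 10 genes, from 43.5% G and C in the longest transcript of Sms to 59.8% in that of Srm. The first 120 coding bases are shown for Arg1 and Odc1, which were higher under the high label, and for Srm and Sms, the ends of the GC range. They were read from the same annotation on the strand of the gene, and capitals mark G and C.
Arg1: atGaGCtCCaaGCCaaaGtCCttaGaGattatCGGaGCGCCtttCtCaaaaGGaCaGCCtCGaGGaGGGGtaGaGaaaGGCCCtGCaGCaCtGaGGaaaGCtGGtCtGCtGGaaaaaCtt
Odc1: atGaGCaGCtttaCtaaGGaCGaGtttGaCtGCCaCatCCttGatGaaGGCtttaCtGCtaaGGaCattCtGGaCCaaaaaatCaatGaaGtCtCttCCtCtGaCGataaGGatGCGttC
Srm: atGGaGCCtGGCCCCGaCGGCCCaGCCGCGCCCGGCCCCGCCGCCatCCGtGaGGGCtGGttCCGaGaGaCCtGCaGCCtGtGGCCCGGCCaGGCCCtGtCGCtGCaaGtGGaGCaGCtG
Sms: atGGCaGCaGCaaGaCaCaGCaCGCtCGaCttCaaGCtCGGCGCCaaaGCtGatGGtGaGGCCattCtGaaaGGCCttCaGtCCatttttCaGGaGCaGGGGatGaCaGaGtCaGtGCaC
G and C made up 51.7% of the stretch of Arg1, 43.3% of that of Odc1, 75% of that of Srm and 55% of that of Sms. These stretches do not keep the order of the longest transcripts, whose shares were 47.7% in Arg1, 52.4% in Odc1, 59.8% in Srm and 43.5% in Sms. It is the share over the longest transcript that the GC offset uses.

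Across the 10 genes, Arg1 and Odc1 were higher in the high-labelled libraries and Arg2 lower, each without overlap between the labels, while the other 7 genes overlapped. None of these differences passed the test over all genes, edgeR's quasi-likelihood test with Benjamini-Hochberg adjustment at 0.05 over 14140 genes. Among all genes tested, 0.0919% were called higher and 0.354% lower in the high-labelled libraries, and 0 of the 10 genes were called in either direction. At an unadjusted p under 0.05 edgeR gave 2 of the 10, Arg1 and Odc1, against 12.1% of all genes tested. DESeq2 called 1 of the 10, Arg1, where it called 121 genes higher and 277 lower of 14140. By limma-voom 0 of the 10 were called, where it called 10 genes higher and 42 lower. All 3 high-labelled libraries lay above all 3 low-labelled ones in 2 of the 10 genes, against a background of 10.5%, and below them in 1 of the 10, against a background of 9.48%. The median log2 fold change was 0.10 over the 10 genes and -0.02 over all genes tested. Fold changes were above 0 in 6 of the 10 genes, against 48.5% of all genes tested.

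**Figure D1:**
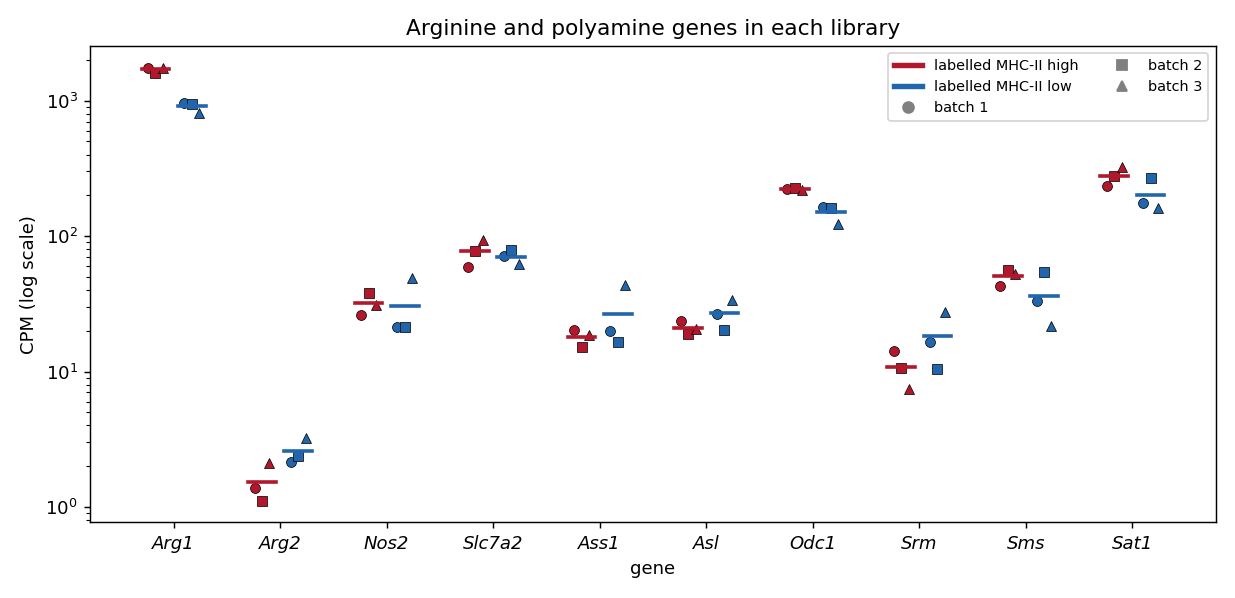
CPM of each of the 10 genes on a log scale, with 1 point per library, shaped by batch, and bars at the mean of 3 libraries per label. Arg1 lies far above the other genes, between 1614 and 1755 CPM in the high-labelled libraries and between 810 and 969 CPM in the low-labelled ones. The points of low-labelled replicate 3 lie above the other low-labelled points for Arg2, Nos2, Ass1, Asl and Srm.

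Arg1 was the gene with the most reads of the 10 in every library. It encodes the cytosolic arginase and lies at chr10:24915221-24927484 on the minus strand. Its values were 1755, 1614 and 1748 CPM in the high-labelled libraries, against 969, 945 and 810 CPM in the low-labelled libraries. The lowest high-labelled library was thus well above the highest low-labelled one, and the spread within a label was small beside the gap. Means were 1706 ± 79.8 CPM in the high-labelled libraries and 908 ± 85.7 CPM in the low-labelled libraries (SD, n = 3 each), a 1.88-fold ratio.

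By edgeR the log2 fold change of Arg1 was 0.91 (SE 0.18, 95% interval 0.50 to 1.32), with an adjusted p of 0.0966, which misses the threshold of 0.05. Arg1 was higher under the high label in each batch, by 0.86, 0.77 and 1.11 on the log2 scale. The GC offset left a log2 fold change of 0.85 (SE 0.11) with an edgeR adjusted p of 0.0064, and in that fit 1.05% of all genes were called higher and 1.53% lower. DESeq2 gave an adjusted p of 6.6e-05. Leaving out low-labelled replicate 2 also brought edgeR's adjusted p under the threshold, to 0.0323. That fit called 246 genes higher and 784 lower of 14378. With the batch as a block edgeR's adjusted p of Arg1 was 0.281. With any other 1 library left out it ran from 0.0663 to 0.438. Over the 18 alternatives the log2 fold change lay between 0.82 and 1.17, and Arg1 was called in 7 of them, with adjusted p between 6.6e-05 and 0.617. The direction and size of the difference therefore held in every alternative run, while its call depended on the fit.

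Arg2, the mitochondrial arginase (chr12:79130777-79156301, plus strand), had few reads. It had 1.39, 1.11 and 2.11 CPM in the high-labelled libraries, against 2.13, 2.37 and 3.21 CPM in the low-labelled libraries. The labels did not overlap, but the highest high-labelled and the lowest low-labelled value nearly touched. These values rest on 25, 25 and 59 reads in the high-labelled and 40, 58 and 18 reads in the low-labelled libraries, so that the exact Poisson 95% interval of low-labelled replicate 3 runs from 1.90 to 5.08 CPM (counting error only). Its log2 fold change was -0.69 (SE 0.36, interval -1.53 to 0.14), with an edgeR adjusted p of 0.451, and it stayed below 0 in all 18 alternatives. Arg2 also shares 20.0% of its exon bases with Vti1b and 8.12% with the antisense gene Gm48780, both on the other strand, and the strand setting of the counting is not given in the sources used here, so that its level is uncertain.

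Nos2, which makes nitric oxide in activated macrophages (chr11:78920787-78960254, plus strand), was present at a moderate level. It had 26.3, 38.3 and 31.1 CPM in the high-labelled libraries, against 21.4, 21.2 and 49.3 CPM in the low-labelled libraries. Low-labelled replicate 3 held the highest value of all, and the other low-labelled values were the lowest 2, so the labels overlapped. For Nos2 the log2 fold change was 0.08 (SE 0.35, interval -0.72 to 0.88), with an edgeR adjusted p of 0.919. That interval reaches far to both sides of 0, so no difference was detectable at this spread. With the GC offset the log2 fold change was 0.50 (SE 0.25), with an edgeR adjusted p of 0.354, and without low-labelled replicate 3 it was 0.58. By batch Nos2 was higher under the high label in batches 1 and 2, by 0.30 and 0.85, and lower in batch 3, at -0.66.

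Slc7a2, the cationic amino acid transporter that brings arginine into macrophages (chr8:40862396-40922308, plus strand), had 59.5, 77.4 and 94.1 CPM in the high-labelled libraries. The low-labelled libraries had 70.7, 78.5 and 62.6 CPM. The 3 low-labelled values all fell inside the range of the high-labelled ones. The log2 fold change was 0.12 (SE 0.21, interval -0.36 to 0.61) and -0.09 (SE 0.14) with the GC offset, with edgeR adjusted p of 0.769 and 0.787. A lincRNA on the other strand, Gm26584, covers 6.95% of its exon bases and was not analysed here.

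Ass1, which joins citrulline and aspartate (chr2:31470207-31520672, plus strand), had 20.3, 15.1 and 18.7 CPM in the high-labelled libraries, against 19.8, 16.6 and 43.7 CPM in the low-labelled libraries. The first and second low-labelled values lay inside the high-labelled range. Asl, which splits the product into arginine and fumarate (chr5:130011258-130029247, minus strand), had 23.5, 18.8 and 20.5 CPM in the high-labelled libraries, against 26.6, 20.2 and 33.9 CPM in the low-labelled libraries. Again low-labelled replicate 3 was the highest. The log2 fold change of Ass1 was -0.55 (SE 0.36) and fell to -0.08 (SE 0.21) with the GC offset; that of Asl was -0.35 (SE 0.23) and 0.08 (SE 0.13) with it. Adjusted p from edgeR without the offset was 0.501 for both genes.

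Odc1 makes putrescine from ornithine, the product of arginase, and is the first step into the polyamines (chr12:17544794-17551505, plus strand). It had 221, 225 and 218 CPM in the high-labelled libraries, against 165, 161 and 122 CPM in the low-labelled libraries. High-labelled values lay within a narrow band, above every low-labelled value. Means were 221 ± 3.89 CPM in the high-labelled and 149 ± 23.5 CPM in the low-labelled libraries (SD, n = 3 each), a 1.48-fold ratio. On the log2 scale the fold change was 0.57 (SE 0.18, interval 0.15 to 0.98), with an edgeR adjusted p of 0.305. In batches 1, 2 and 3 it was 0.42, 0.48 and 0.83. With the GC offset it was 0.76 (SE 0.19), with an edgeR adjusted p of 0.084, and the same offset without low-labelled replicate 3 gave 0.57 with an adjusted p of 0.0375, the single alternative of 18 in which Odc1 was called. In that fit 161 genes were called higher and 182 lower of 14920. The adjusted p of Odc1 over the 18 alternatives ran from 0.0375 to 0.848.

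Srm, the spermidine synthase (chr4:148591503-148594993, plus strand), had 14.1, 10.7 and 7.44 CPM in the high-labelled libraries, against 16.6, 10.5 and 27.7 CPM in the low-labelled libraries. Sms, the spermine synthase (chrX:157443855-157492287, minus strand), had 42.7, 56.4 and 52.9 CPM in the high-labelled libraries, against 33.4, 54.3 and 21.6 CPM in the low-labelled libraries. In low-labelled replicate 3 the pair lay at opposite ends, Srm at its highest and Sms at its lowest level of the 6 libraries. The log2 fold change of Srm was -0.75 (SE 0.38) and -0.12 (SE 0.13) with the GC offset. That of Sms was 0.47 (SE 0.32) and 0.30 (SE 0.17) with it. Without the offset edgeR's adjusted p was 0.449 for Srm and 0.506 for Sms. A processed pseudogene of Sms had 1 to 23 reads of its own per library, against 121 to 1480 for Sms, and how reads were split between them is not given in the sources used here.

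Sat1, which acetylates spermidine and spermine (chrX:155213132-155216449, minus strand), had 234, 276 and 324 CPM in the high-labelled libraries, against 177, 267 and 163 CPM in the low-labelled libraries. Low-labelled replicate 2 fell within the high-labelled range, and the other 2 low-labelled libraries fell below it. The log2 fold change was 0.46 (SE 0.24, interval -0.09 to 1.01) and 0.26 (SE 0.12) with the GC offset, with edgeR adjusted p of 0.451 and 0.324.

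**Figure D2:**
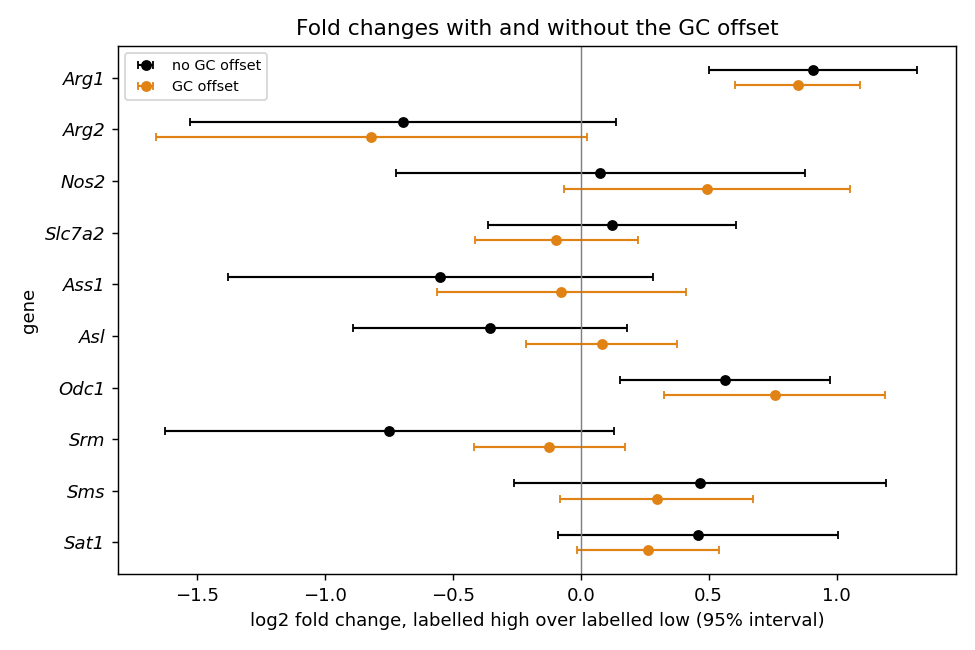
Log2 fold changes of the 10 genes, high-labelled over low-labelled, from edgeR without and with the GC offset, with 95% intervals. Without the offset the intervals of Arg1 (0.50 to 1.32) and Odc1 (0.15 to 0.98) lie above 0, and the offset brings the estimates of Ass1, Asl and Srm to between -0.12 and 0.08.

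Without low-labelled replicate 3 the edgeR fold change of Arg1, high-labelled over low-labelled, was 1.78, against 1.88 with it. The fold change of Odc1 was then 1.36, of Sat1 1.25 and of Sms 1.16. Ass1, Asl and Srm had fold changes of 0.987, 0.893 and 0.790 without it. Relative to the mean of the other 2 low-labelled libraries, that library held 2.40 times the Ass1 CPM, 2.31 times the Nos2 CPM, 2.04 times the Srm CPM and 1.45 times the Asl CPM, all genes with at least 53.9% G and C. It held 0.493 times the Sms CPM and 0.733 times the Sat1 CPM, with 43.5% and 43.8% G and C. Odc1, with 52.4% G and C, went the other way from the genes richer in G and C, at 0.751 times. Arg2, with 46.1%, also stood off the trend, at 1.43 times, on 18 reads.

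Over the 10 genes, the deviation of log2 CPM from a gene's mean of 6 libraries correlated with GC content at a Pearson r of 0.19, -0.35 and -0.86 in high-labelled replicates 1, 2 and 3, and of 0.48, -0.78 and 0.72 in low-labelled replicates 1, 2 and 3 (n = 10 genes, which share each library and its depth). The steepest opposite trends were in batch 3, where the high-labelled library leaned to genes poor in G and C and the low-labelled one to genes rich in them. With each library's trend over all genes taken out, Arg1 had 1758, 1552 and 1694 CPM in the high-labelled libraries, against 972, 893 and 915 CPM in the low-labelled libraries. Odc1 then had 222, 242 and 254 CPM in the high-labelled libraries, against 152, 173 and 98.0 CPM in the low-labelled libraries. Its high-labelled SD was 15.9 CPM, against 3.89 CPM before the trend was taken out. Srm then had 12.9, 13.5 and 11.7 CPM in the high-labelled libraries, against 13.5, 14.3 and 13.6 CPM in the low-labelled libraries. Sat1 had 235, 252 and 282 CPM in the high-labelled libraries, against 186, 233 and 222 CPM in the low-labelled libraries. Both genes overlapped between the labels before the trend was taken out and not after it, Srm lower and Sat1 higher under the high label, with gaps that were small beside the spread within a label.

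**Figure D3:**
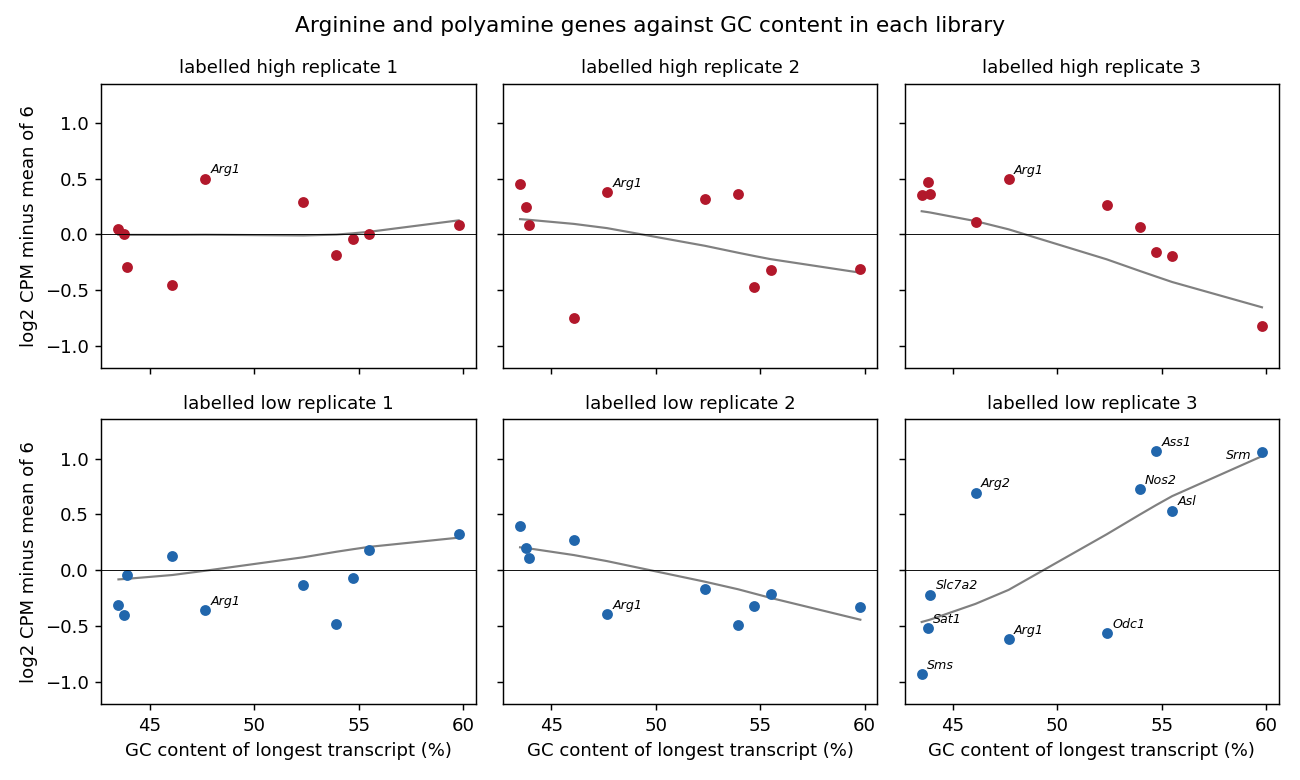
Deviation of each gene's log2 CPM from its mean of 6 libraries against the GC content of its longest transcript, 1 panel per library, with the trend over all genes as a grey line. In low-labelled replicate 3 Srm, Ass1, Nos2, Asl and Arg2 lie above 0 and Sms, Sat1, Slc7a2, Odc1 and Arg1 below it. Arg1 lies above the grey line in each high-labelled library and below it in each low-labelled one.

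Per kilobase of exon, which allows levels to be compared between genes, Arg1 stood first of the 10 by a wide margin. It had 788, 724 and 785 CPM per kilobase in the high-labelled libraries, against 435, 424 and 364 CPM per kilobase in the low-labelled libraries. It ranked 20 among 14128 genes in each high-labelled library and between 31 and 68 in the low-labelled ones. Sat1 came next, at 84.4 to 116.6 CPM per kilobase in the high-labelled and 58.6 to 96.3 in the low-labelled libraries, followed by Odc1 at 63.9 to 66.2 and 36.0 to 48.4. Each of these 3 was above the next in 6 of 6 libraries. Ass1, Srm, Slc7a2, Sms, Nos2 and Asl followed with mean levels between 4.95 and 9.27 CPM per kilobase over the 6 libraries, and no neighbours among these 6 kept one order in all libraries. Arg2 was last, at 0.780 to 1.48 in the high-labelled and 1.49 to 2.25 in the low-labelled libraries, and Asl was above it in 6 of 6.

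Ratios within a library do not depend on library size and set one branch of the pathway against another. Arg1 exceeded Nos2, its competitor for arginine, by 132, 83.5 and 111.3 times per kilobase in the high-labelled libraries, against 89.8, 88.2 and 32.6 times in the low-labelled libraries. The labels overlapped, and the difference of mean log2 ratios, high-labelled minus low-labelled, was 0.75 (exact permutation test, two-sided p = 0.3). It was 0.27 without low-labelled replicate 3 and 0.36 with the GC trend taken out. Arg1 exceeded Arg2 by 809, 929 and 531 times in the high-labelled libraries, against 291, 255 and 162 times in the low-labelled libraries, a difference of 1.68 without overlap. Arg1 exceeded Ass1 by 93.9, 116.1 and 101.1 times in the high-labelled libraries, against 53.0, 61.5 and 20.1 times in the low-labelled libraries, a difference of 1.36 without overlap. The difference for Ass1 was 0.86 without low-labelled replicate 3 and 0.92 with the GC trend taken out. The differences for Arg2 and Ass1 reached p = 0.1 in the exact permutation test, the smallest that 3 libraries against 3 can give. Since Arg1 lay higher and Arg2 lower under the high label, each without overlap, Arg1 over Arg2 had to separate the labels. The p of that ratio therefore adds nothing to those values. Arg2 also rests on 18 to 59 reads and shares exon bases with genes on the other strand.

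The remaining ratios overlapped between the labels before any GC trend was taken out. Ass1 over Asl, the successive steps of arginine resynthesis, was 1.73, 1.60 and 1.83 in the high-labelled libraries, against 1.49, 1.65 and 2.58 in the low-labelled libraries (difference -0.11, exact permutation p = 0.9). Without low-labelled replicate 3 that difference was 0.13. Odc1 over Sat1, synthesis against breakdown of polyamines, was 0.769, 0.665 and 0.548 in the high-labelled libraries, against 0.760, 0.492 and 0.613 in the low-labelled libraries (difference 0.10, exact permutation p = 0.7). With the GC trend taken out the difference for Odc1 over Sat1 was 0.54, where the exact permutation p was 0.1. Srm over Sms was 1.24, 0.710 and 0.528 in the high-labelled libraries, against 1.87, 0.728 and 4.81 in the low-labelled libraries (difference -1.27, exact permutation p = 0.2). Without low-labelled replicate 3 that difference was -0.59, and with the GC trend taken out it was -0.47, where the exact permutation p was 0.1. Adjusted over the 6 ratios by Benjamini-Hochberg, the exact permutation p ran from 0.3 to 0.9.

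**Figure D4:**
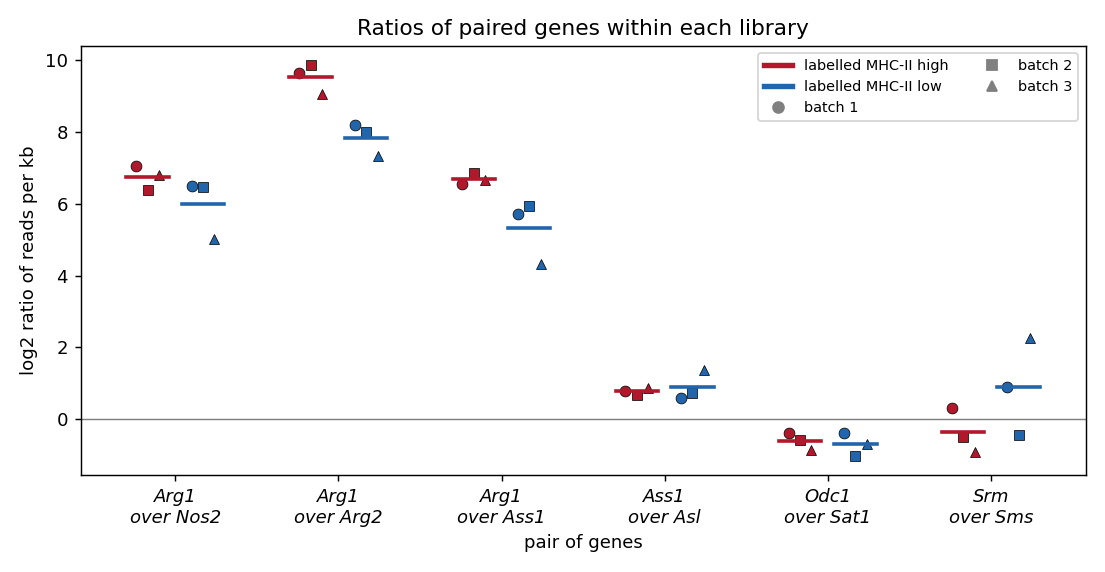
Log2 ratios of reads per kilobase for 6 pairs of genes, with 1 point per library, shaped by batch, and bars at the mean of 3 libraries per label. Arg1 over Arg2 and Arg1 over Ass1 lie higher in the 3 high-labelled libraries than in the 3 low-labelled ones, and Srm over Sms spreads from 0.728 to 4.81 on the linear scale within the low label.

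Beyond the 10, the pathway was followed through 44 further genes in 6 groups, of which 34 had enough reads to be tested. By edgeR 0 of the 34 were called higher and 0 lower, 4 had an unadjusted p under 0.05, 1 higher and 3 lower, or 11.8% against 12.1% of all genes, and DESeq2 and limma-voom also called 0. Fold changes were above 0 in 13 of 34, against 48.5% of all genes tested, with a median of -0.31, or -0.10 with the GC offset. Nags and Otc, urea cycle genes of liver, had 0 reads in every library, which allows up to 3 reads in each.

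On the higher side, 3 genes that use arginine or ornithine outside the polyamines separated the labels. Gatm, which moves the amidino group of arginine to glycine in creatine synthesis, had 49.1, 43.7 and 58.4 CPM in the high-labelled libraries, against 32.3, 31.7 and 33.5 CPM in the low-labelled libraries. Its log2 fold change was 0.63 (SE 0.18), with an edgeR adjusted p of 0.248. Oat, the mitochondrial ornithine aminotransferase, averaged 47.6 ± 2.60 CPM in the high-labelled libraries and 35.2 ± 9.22 CPM in the low-labelled libraries (SD, n = 3 each). Slc25a15, the mitochondrial ornithine carrier, averaged 10.8 ± 0.33 CPM in the high-labelled libraries and 8.29 ± 1.80 CPM in the low-labelled libraries (SD, n = 3 each). These 3 of 34 were the ones with all high-labelled libraries above all low-labelled ones, or 8.82%, near the background of 10.5%. Mtap, which salvages the methylthioadenosine left by polyamine synthesis, averaged 21.9 CPM in the high-labelled and 17.1 CPM in the low-labelled libraries, with overlap.

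On the lower side, 4 of 34 had all high-labelled libraries below all low-labelled ones, Prodh, Paox, Dhps and Aldh18a1, the last named because it completes that count. That is 11.8%, against a background of 9.48%. Prodh, the proline dehydrogenase, had 3.67, 2.14 and 3.00 CPM in the high-labelled libraries, against 5.59, 4.13 and 8.21 CPM in the low-labelled libraries, with a log2 fold change of -0.99 (SE 0.34) and an edgeR adjusted p of 0.36. The polyamine oxidase Paox averaged 4.08 CPM in the high-labelled and 6.20 CPM in the low-labelled libraries. Dhps, which uses spermidine to make hypusine on a translation factor, averaged 14.1 CPM in the high-labelled and 21.6 CPM in the low-labelled libraries. Smox, the spermine oxidase, had 39.6, 20.7 and 26.0 CPM in the high-labelled libraries, against 54.3, 26.0 and 91.0 CPM in the low-labelled libraries. Within each batch Smox was lower under the high label, but the labels overlapped and edgeR's adjusted p was 0.42. Without low-labelled replicate 2 it was 0.0399, and without the filter on low counts 0.0459. The first of these fits called 246 genes higher and 784 lower of 14378, and the second 113 higher and 436 lower of 27192. With the GC offset the log2 fold changes were 0.39 for Gatm, 0.35 for Oat, 0.34 for Slc25a15 and 0.22 for Mtap, and -0.77 for Prodh, -0.51 for Paox, -0.52 for Smox and -0.16 for Dhps.

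**Figure D5:**
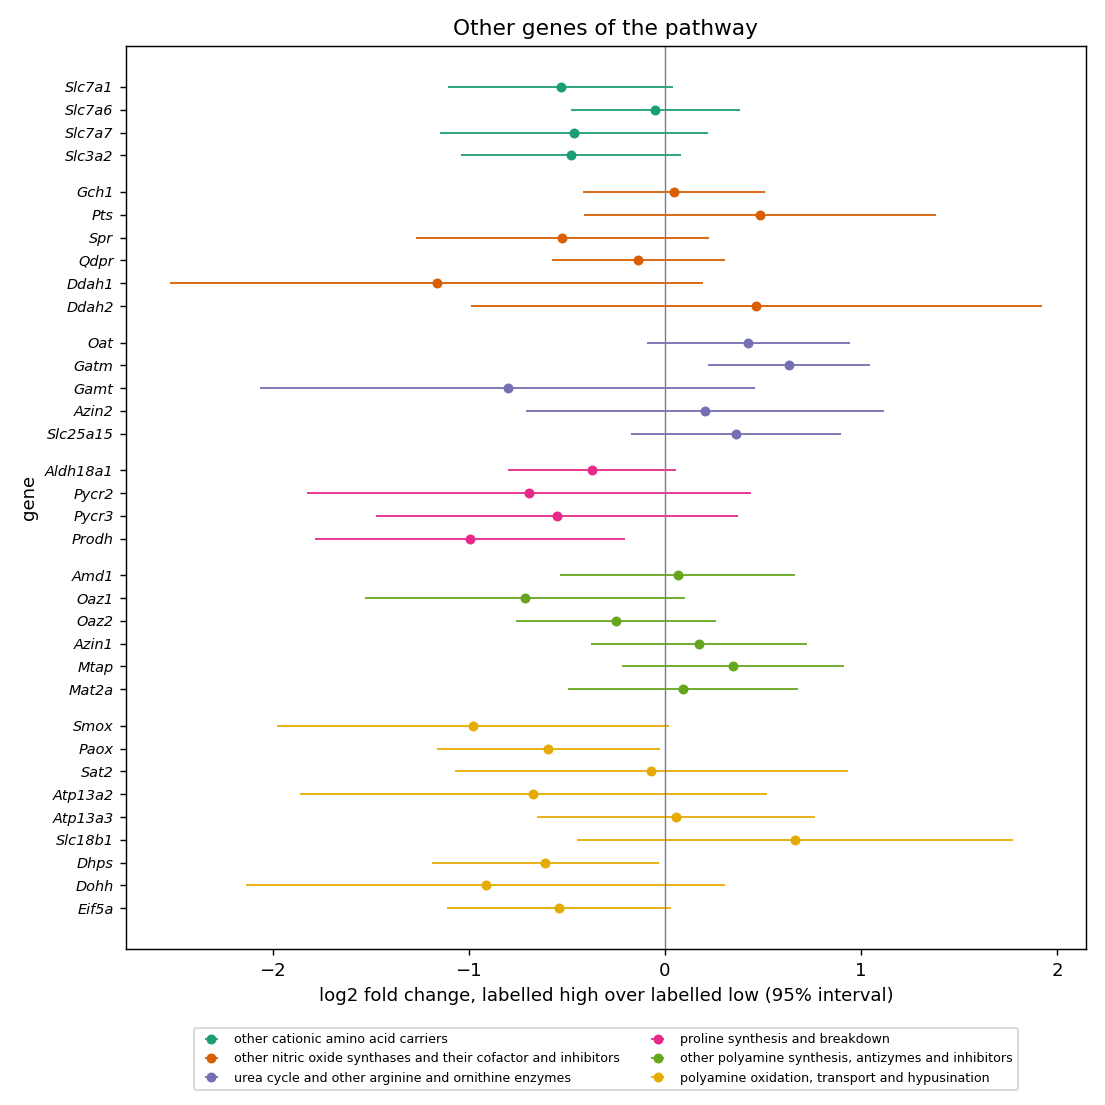
Log2 fold changes, high-labelled over low-labelled, of the 34 further pathway genes tested, with 95% intervals from edgeR without the GC offset, coloured by group. The 4 tested proline genes and the 4 carriers have estimates below 0, and 4 of the 5 urea cycle, arginine and ornithine enzymes have estimates above 0, while 0 of the 34 passed the adjusted threshold.

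By group, 4 of 4 tested cationic amino acid carriers and 4 of 4 proline genes had log2 fold changes below 0, with medians of -0.47 and -0.62, and 2 of 9 genes of polyamine oxidation, transport and hypusination were above 0, with a median of -0.59. Over all genes tested 48.5% were above 0. With the GC offset these 3 medians were -0.18, -0.13 and -0.16. The offset turned the proline gene Pycr3 to 0.01 and Atp13a2, of the polyamine group, to 0.18. Atp13a3, of the same group, turned to -0.17. Of 5 tested urea cycle, arginine and ornithine enzymes 4 were above 0, with a median of 0.36 and of 0.35 with the offset. No group held a gene past the adjusted threshold.

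Of 19 known regulators of Arg1, Nos2 and Odc1, all tested, edgeR called 0 and gave 3 an unadjusted p under 0.05, or 15.8% against 12.1% of all genes. These 3 were lower in the high-labelled libraries. DESeq2 called 1 lower, where it called 121 genes higher and 277 lower of 14140, and limma-voom called 0. Pparg, a nuclear receptor that can induce Arg1 in mouse macrophages, had 2.39, 2.76 and 2.93 CPM in the high-labelled libraries, against 5.17, 5.52 and 6.60 CPM in the low-labelled libraries. The labels did not overlap, with a log2 fold change of -1.08 (SE 0.25, interval -1.66 to -0.50) and an edgeR adjusted p of 0.156, or 0.0177 by DESeq2. Its values thus ran the other way from those of Arg1. Il4ra, the receptor chain for interleukin-4 and interleukin-13, averaged 169 ± 38.3 CPM in the high-labelled libraries and 299 ± 125 CPM in the low-labelled libraries (SD, n = 3 each), with overlap. Its edgeR adjusted p was 0.398, and 0.0329 without low-labelled replicate 2, where 246 genes were called higher and 784 lower of 14378.

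Stat3, a transcription factor downstream of interleukin-6 and interleukin-10, averaged 109 CPM in the high-labelled and 158 CPM in the low-labelled libraries. Cebpb, which takes part in Arg1 induction, averaged 23.7 CPM in the high-labelled and 36.6 CPM in the low-labelled libraries. Both overlapped between the labels, with edgeR adjusted p of 0.398 and 0.42. On the higher side, the hypoxia factor Hif1a had 452, 441 and 540 CPM in the high-labelled libraries, against 412, 445 and 252 CPM in the low-labelled libraries. Its paralog Epas1, the endotoxin receptor Tlr4 and the interferon-gamma receptor chain Ifngr2 had log2 fold changes of 0.21, 0.40 and 0.04, with overlap. With the GC offset the direction of Cebpb turned, to a log2 fold change of 0.11 (SE 0.32). The offset gave -0.99 for Pparg, -0.33 for Il4ra, -0.29 for Stat3, 0.12 for Hif1a, 0.49 for Epas1, 0.16 for Tlr4 and 0.09 for Ifngr2. In that fit Stat6 and Klf4, named after their values were seen, were higher under the high label at an unadjusted p under 0.05. Their log2 fold changes were 0.32 and 0.38, with edgeR adjusted p of 0.142 and 0.129. Without the offset Stat6 and Klf4 were at -0.00098 and 0.0082, with edgeR adjusted p of 0.998 and 0.985. No regulator had all high-labelled libraries above all low-labelled ones, against a background of 10.5%. Below them lay 2 of 19, or 10.5%, against a background of 9.48%, Pparg and Max, the last named to complete the count.

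Among 8974 protein-coding genes with an average of at least 5 CPM, the profile most like that of Arg1 over the 6 libraries was that of Iqgap2, a scaffold protein, at a Pearson r of log2 CPM of 0.998. Pde5a, a phosphodiesterase of cyclic GMP, followed at 0.997, and then Ostf1 at 0.995, Dnajc18 at 0.993 and Anp32a at 0.993. Iqgap2 had 81.1, 78.5 and 83.9 CPM in the high-labelled libraries, against 44.9, 45.1 and 38.4 CPM in the low-labelled libraries. These values describe the 6 libraries, which the labels split into 2 levels of Arg1, and carry no test.

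The sorted cells carried macrophage transcripts under both labels: the summed level of 12 macrophage markers was 10774 to 13234 CPM in the high-labelled and 7636 to 14496 CPM in the low-labelled libraries, and 0 of the 12 were called. With the GC offset 2 of the 12 were called higher, against 1.05% of all genes tested in that fit. Lyz2, the macrophage lysozyme, had 7023, 5900 and 6445 CPM in the high-labelled libraries, against 3689, 3241 and 3222 CPM in the low-labelled libraries. Adgre1, which encodes F4/80 of the sort, had 337, 321 and 372 CPM in the high-labelled libraries, against 219, 183 and 151 CPM in the low-labelled libraries. These 2 markers, named after their values were seen, moved with Arg1 and by a like amount, at log2 fold changes of 0.93 and 0.90 with edgeR adjusted p of 0.122 and 0.132, while Apoe, at -1.05, went the other way. The list as a whole did not move with Arg1. Only 4 of the 12 macrophage markers had log2 fold changes above 0, and their median was -0.48, or -0.01 with the GC offset. Dendritic cell markers moved with the label in the direction opposite to Arg1. Of 12 markers 9 were tested and 4 called lower in the high-labelled libraries, against 0.354% of all genes tested. Itgax, Ccr7 and Ccl22 were among the 4. The sum of the list was 50.5 to 91.7 CPM in the high-labelled against 284 to 423 CPM in the low-labelled libraries, with none at 0 throughout. In sorted bulk RNA, fewer cells of a type and less RNA per cell cannot be told apart, and the part of macrophage and dendritic cell content in the values of Arg1, Odc1 or Arg2 was not tested.

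The neutrophil markers, a cell type that stores arginase in humans, summed to 4.56 to 9.30 CPM in the high-labelled and 1.49 to 5.18 CPM in the low-labelled libraries, and 0 of the 2 tested were called, with Ly6g and Camp at 0 in all libraries. Of 8 eosinophil, basophil and mast cell markers 2 were tested and Ear2 was called lower, against 0.354% of all genes tested. Epx and Mcpt8 were at 0. The T and NK cell sum was 0.668 to 1.29 CPM in the high-labelled and 2.50 to 2.88 CPM in the low-labelled libraries, with Cd3e, Cd3d and Cd8a at 0, and the B cell sum 2.23 to 2.90 CPM against 6.54 to 13.03 CPM. Of 7 epithelial and carcinoma markers 3 were tested and Cdh1 was called lower, against the same 0.354%. The sum of that list was 15.0 to 21.7 CPM in the high-labelled against 41.0 to 42.7 CPM in the low-labelled libraries, and Cldn4 was at 0. Monocyte, fibroblast, endothelial and proliferation lists held 0 called genes without the GC offset. The monocyte sum was 162 to 252 CPM in the high-labelled and 292 to 770 CPM in the low-labelled libraries. The fibroblast sum was 74.1 to 413 CPM against 131 to 604 CPM. With the offset 1 monocyte, 1 B cell and 1 epithelial and carcinoma marker were called lower. So were 2 eosinophil, basophil and mast cell markers and 5 dendritic cell markers, against 1.53% of all genes tested in that fit. The part of these lists in the values above was not tested.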

How the data were processed

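For each of 6 libraries the authors deposited a table of raw counts by Ensembl gene, made with HTSeq after FastQC, Trimmomatic and STAR on GRCm38, per the submitters' processing notes, which also name DESeq2. Neither annotation release nor strand setting is stated there. Summary lines stayed out of library sizes: per library, 35.2% to 49.4% of reads lay in no feature, 0.324% to 0.864% were ambiguous and 7.6% to 17.4% aligned to several places. Of 55487 genes, 55227 matched GENCODE M21, which gave names, coordinates, exon lengths, GC content and sequences.

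The main test was that of edgeR 4.0.16 in R 4.3.3 (TMM factors, default filter on low counts, quasi-likelihood test by label over all genes, Benjamini-Hochberg adjustment, threshold 0.05). CPM uses TMM-scaled library sizes, with mean ± SD over 3 libraries. Alternatives were RLE factors, library sizes alone, DESeq2 1.42.0, limma-voom (limma 3.58.1), no filter, the batch as a block, a GC offset (local regression of log2 CPM on GC content of the longest transcript, span 0.4), removal of rRNA and mitochondrial genes, and libraries left out. The GC offset without low-labelled replicate 3 or without batch 3 was added after seeing the data. The scripts were tested on simulated data.

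The 10 genes, the lists and the alternatives were chosen with earlier results of these data known. Named genes are the 10, from the further pathway genes and from the regulators up to 4 per direction by smallest p, at a mean of at least 1 CPM, the 5 genes most like Arg1, and called or absent markers. The labels pair the samples, since a batch number joins 1 library of each label; deviations from the label means correlated at 0.16, 0.33 and -0.12 in batches 1, 2 and 3.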

Additional observations from a re-analysis of the deposited data

How the results depend on the processing

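Of the 10 genes, Arg1, Odc1, Sat1 and Sms kept log2 fold changes above 0 and Arg2 and Srm below 0 in all 18 alternatives, with ranges of 0.82 to 1.17 for Arg1, 0.44 to 0.80 for Odc1 and -0.999 to -0.39 for Arg2. The number called higher was 0 in the test as reported and 1 (Arg1) with DESeq2, without the filter on low counts (edgeR adjusted p = 0.0162), with the offset for GC content, with this offset plus the replicate block, and with the offset without batch 3; it was 2 (Arg1 and Odc1) with the offset without low-labelled replicate 3, and 0 to 1 when 1 library was left out (1 without low-labelled replicate 2). With the replicate block alone Arg1 had a log2 fold change of 0.91 (edgeR adjusted p = 0.281) and 0 of the 10 were called. Further pathway genes called lower numbered 1 (Smox) without the filter and 0 to 1 with 1 library left out; regulators called lower numbered 1 (Pparg) with DESeq2 and with the GC offset and block, and 0 to 1 with 1 library left out.

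Directions turned in 4 of the 10 genes, Slc7a2, Asl, Ass1 and Nos2, which were called in none of the alternatives. The offset put Slc7a2 at -0.0947 alone and at -0.11 together with the block; without batch 3 it was -0.12 in fits with and without the offset, and with 1 library left out it ran from -0.0427 to 0.30. Asl was 0.0087 with library sizes alone, 0.0816 under the offset, 0.0727 under offset and block, and 0.0494 with the offset without low-labelled replicate 3. Ass1 was 0.18 with the offset without that library and 0.0300 with the offset without batch 3. Nos2 ran from -0.10 to 0.58 with 1 library left out. Odc1 over Sat1 differed by 0.54 with the GC trend removed (exact permutation p = 0.1). The cause was not tested.

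Over all genes, edgeR called 13 higher and 50 lower, against 121 and 277 by DESeq2, 113 and 436 without the filter, 1 and 40 with the block, 149 and 216 with the offset, 241 and 376 with offset and block, and 246 and 784 without low-labelled replicate 2; without any other 1 library it called 0 to 15 higher and 8 to 55 lower. With the offset, 161 were called higher and 182 lower without low-labelled replicate 3, and 40 and 107 without batch 3. Library sizes alone moved the median of all genes to 0.25. Depth limits Arg2, at 18 to 59 reads.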
